A study of Mus musculus with 4 samples.

Results

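The 6 genes described here encode the mouse receptors for immunoglobulin G (IgG): the activating receptors Fcgr1, Fcgr3 and Fcgr4, the inhibitory receptor Fcgr2b, the signalling chain Fcer1g that the activating receptors share, and the neonatal receptor Fcgrt. They were taken by symbol from a table of 55487 genes, and 6 of 6 were found and had enough reads to be among the 16871 genes tested. Bulk RNA sequencing covered whole adipocytes of the perigonadal fat depot, the visceral fat beside the gonads, from male mice fed a standard diet. CKO mice gave 2 libraries and their control littermates, labelled WT, gave 2. The series title names BLIMP1, a transcriptional repressor, and macrophages, but the labels do not spell out the abbreviation CKO, and the sources used here do not give the deleted gene, the Cre line or the age. Every log2 change is CKO minus WT of log2(scaled reads + 1), and scaled reads are reads divided by the size factor of their library. The comparison asks how far IgG receptor transcripts in the adipocyte preparation differed between CKO mice and controls.

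Receptors for the constant part of IgG let innate immune cells respond to antibody-coated particles and immune complexes. Fcgr1 (CD64, the high-affinity receptor), Fcgr3 (CD16) and Fcgr4 (CD16-2) signal through Fcer1g, the common gamma chain, whose tyrosine-based activation motif (ITAM) recruits the kinase Syk. Fcgr2b (CD32) carries an inhibitory motif (ITIM) of its own and recruits the lipid phosphatase SHIP1, encoded by Inpp5d, so that cells with both kinds of receptor set their response by the balance between them. Macrophages, the main immune cells of fat, carry all 4 of these receptors, B cells carry Fcgr2b, and NK cells carry Fcgr3. Fcgrt encodes the heavy chain of FcRn, an MHC class I-like protein that pairs with beta-2 microglobulin, returns IgG and albumin from endosomes to the cell surface and is made by many cell types, among them endothelium and macrophages.

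Promoter windows are shown because 5 of the 6 genes shared a direction between the groups and Fcgrt had the other. Each window runs from 100 bases before to 50 bases after the start of the RefSeq gene, 150 bases in all, read 5′ to 3′ on the strand of the gene, from RefSeq on GRCm38.p6. Capitals mark matches, on either strand, to GAGGAA (a core of the sites of PU.1, the main transcription factor of myeloid cells) or to GGAANNGAA (a composite of PU.1 and interferon regulatory factors). RefSeq lists 2 overlapping windows for Fcgr3, and the first listed is shown. The windows of Fcgr3 and Fcgr2b lie inside the genes as GENCODE draws them. The windows lie at chr3:96293920-96294069 (Fcgr1, minus strand), chr1:171059354-171059503 (Fcgr3, minus strand), chr1:171018826-171018975 (Fcgr4, plus strand), chr1:170976022-170976171 (Fcgr2b, minus strand), chr1:171234300-171234449 (Fcer1g, minus strand) and chr7:45103773-45103922 (Fcgrt, minus strand).
Fcgr1: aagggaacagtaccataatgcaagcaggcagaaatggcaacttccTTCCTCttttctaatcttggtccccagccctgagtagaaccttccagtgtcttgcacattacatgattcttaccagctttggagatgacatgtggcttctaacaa
Fcgr3: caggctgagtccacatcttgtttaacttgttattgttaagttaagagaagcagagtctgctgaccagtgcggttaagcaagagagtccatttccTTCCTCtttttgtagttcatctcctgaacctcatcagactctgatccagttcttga
Fcgr4: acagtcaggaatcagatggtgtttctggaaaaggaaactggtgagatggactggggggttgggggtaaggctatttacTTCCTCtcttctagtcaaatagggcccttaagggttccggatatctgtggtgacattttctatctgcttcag
Fcgr2b: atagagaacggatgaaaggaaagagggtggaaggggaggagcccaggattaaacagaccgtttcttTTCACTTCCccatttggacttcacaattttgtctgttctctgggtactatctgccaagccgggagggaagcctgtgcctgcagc
Fcer1g: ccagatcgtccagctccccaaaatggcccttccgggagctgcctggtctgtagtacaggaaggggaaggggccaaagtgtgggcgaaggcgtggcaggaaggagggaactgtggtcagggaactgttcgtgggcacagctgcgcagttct
Fcgrt: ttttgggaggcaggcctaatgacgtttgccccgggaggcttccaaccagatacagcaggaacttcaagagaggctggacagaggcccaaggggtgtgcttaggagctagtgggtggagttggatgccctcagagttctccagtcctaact

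In the whole RefSeq windows of 300 bases, GAGGAA stood in 3 of the 6 genes, Fcgr1, Fcgr3 and Fcgr4, against 28.3% of the windows of 27025 genes. Each of these matches reads as its reverse complement, TTCCTC, beginning at position -55 in Fcgr1, -6 in Fcgr3 and -22 in Fcgr4, where -1 is the last base before the start. The composite GGAANNGAA was found in Fcgr2b alone, also on the opposite strand, beginning at -34; 8.25% of all windows hold it. The short core GGAA, part of both motifs, occurred in all 6 windows, 3 to 7 times each, and in 95.9% of all windows. AGNGAAAG, a core of the BLIMP1 motif, was present in 0 of the 6 windows and in 8.5% of all windows. Both strands were searched, and a match describes letters in these windows, not a bound site.

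Totals of recovered reads were 24152081 to 26742547 in the 4 libraries, with size factors of 0.951 to 1.10. The libraries differed in macrophage and adipocyte transcripts. Adgre1, which encodes the macrophage protein F4/80, had 1384 and 3106 reads in CKO replicates 1 and 2 and 8071 and 31880 in WT replicates 1 and 2. Adipoq, the adipocyte hormone adiponectin, had 71437 and 43436 reads in CKO and 44425 and 7561 in WT. Prdm1, which encodes BLIMP1, had 152 and 386 reads in CKO and 514 and 1135 in WT; since the labels do not say which gene or exons CKO mice lack, these reads do not check the labels. The labels do not state that each library is its own animal, and a p-value here reflects the spread among 4 libraries, which may be technical. No gene of 16871 (0.0%) passed an adjusted p under 0.05 in limma, and limma with voom weights gave 0 as well. At an unadjusted p under 0.05, 1224 genes (7.26%) were lower and 566 (3.35%) higher in CKO, and without scaling 855 were lower and 859 higher. These counts were 212 lower and 122 higher without CKO replicate 1, 989 and 187 without CKO replicate 2, 2876 and 2875 without WT replicate 1, and 674 and 260 without WT replicate 2.

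Transcripts of the 4 receptors and of their chain were lower in both CKO libraries than in both WT libraries, and Fcgrt was higher in both. By this count 5 of the 6 genes lay below, against 26.8% of all genes tested, and 1 lay above, against 23.9%. At an unadjusted p under 0.05, 3 of the 6 genes were lower (Fcer1g, Fcgr3 and Fcgr1; background 7.26%) and 0 were higher (background 3.35%), while 0 passed after adjustment over all genes (background 0.0%). Without CKO replicate 1 the unadjusted p was 0.0724 for Fcer1g, 0.0854 for Fcgr3 and 0.0947 for Fcgr1 in limma. With voom weights that of Fcgr1 was 0.0568, and with library weights that of Fcgr2b was 0.0466. In bulk RNA, fewer cells of a type and less RNA per cell cannot be told apart. The median log2 change of the 6 genes was -2.46, beside 0.015 for all genes tested, and -1.43 without WT replicate 2.

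**Figure D1:**
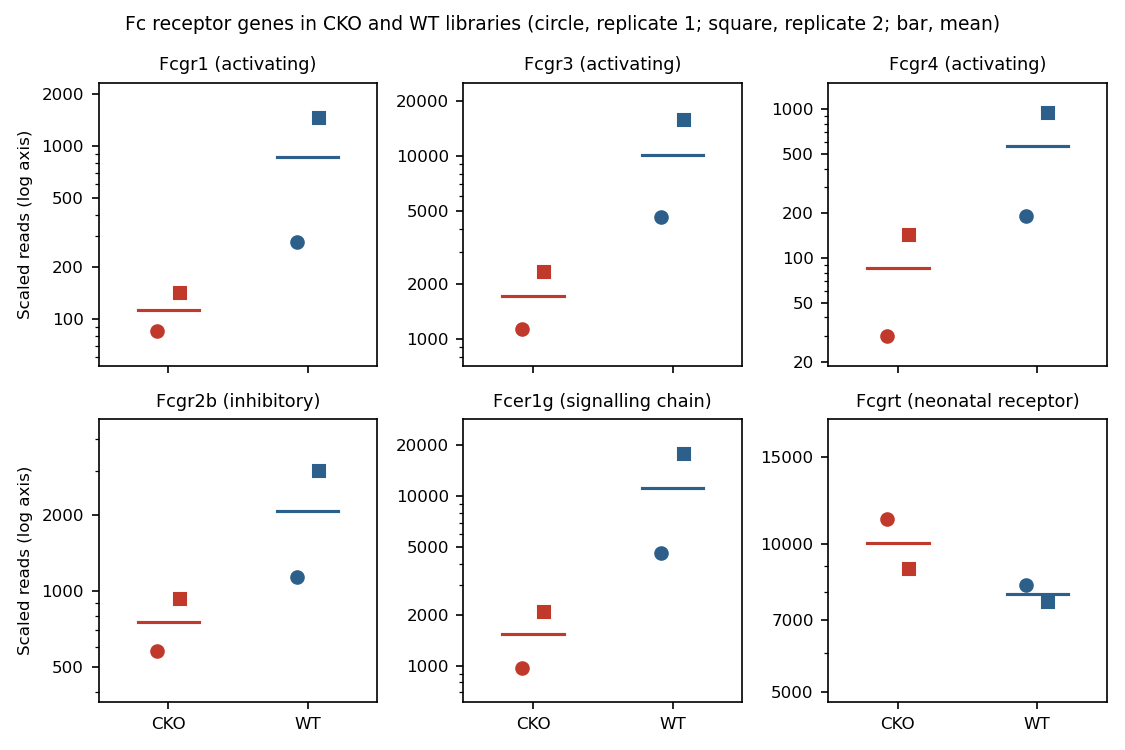
Scaled reads (log axis, with its own range in each panel) of the 6 Fc receptor genes in CKO (left) and WT (right), with a point for each library and a bar at the mean of the group. In 5 panels both CKO points lie below both WT points, and in the Fcgrt panel, which spans 7618.8 to 11217.9, both lie above.

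Per kilobase, Fcgr3 was the highest of the activating receptors in every library. Fcgr3 (ENSMUSG00000059498.13; GRCm38 chromosome 1, 171051174 to 171064935, minus strand) had 1133.0 and 2317.9 scaled reads in CKO replicates 1 and 2 and 4604.1 and 15615.0 in WT replicates 1 and 2. WT replicate 2 was the highest and CKO replicate 1 the lowest, and the groups did not overlap. The CKO libraries averaged 1725.5 ± 837.9 scaled reads and the WT libraries 10109.6 ± 7785.9 (SD, n = 2 each), so that the CKO mean was 17.1% of the WT mean. The log2 change was -2.39 (SE 0.69), with an unadjusted p of 0.0187 and an adjusted p of 0.459 in limma.

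Fcgr1 (ENSMUSG00000015947.10; chromosome 3, 96282909 to 96293969, minus strand), the receptor that binds monomeric IgG, had 85.2 and 140.4 scaled reads in CKO and 279.3 and 1448.9 in WT. Most of the WT mean came from replicate 2. The log2 change was -2.53 (SE 0.84; unadjusted p = 0.0301, adjusted p = 0.459 in limma). Fcgr4 (ENSMUSG00000059089.4; chromosome 1, 171018920 to 171029761, plus strand), a receptor for IgG2 subclasses on macrophages, monocytes and neutrophils, had 30.1 and 143.1 scaled reads in CKO and 191.1 and 938.9 in WT. CKO replicate 2 and WT replicate 1 differed by 0.41 on the log2 scale for Fcgr4, less than the SD of either group (1.57 in CKO and 1.62 in WT). Its log2 change of -2.67 had an SE of 1.07, an unadjusted p of 0.0549 and an adjusted p of 0.459 in limma.

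The inhibitory receptor Fcgr2b had the smallest log2 change of the 4 receptors, although the differences between receptors were not tested. Fcgr2b (ENSMUSG00000026656.15; chromosome 1, 170958617 to 170976547, minus strand) had 580.0 and 930.3 scaled reads in CKO and 1140.1 and 3005.0 in WT. The groups did not overlap, but CKO replicate 2 and WT replicate 1 were 0.29 apart on the log2 scale. The CKO libraries averaged 755.1 ± 247.6 and the WT libraries 2072.6 ± 1318.7 scaled reads (SD, n = 2 each), and the CKO mean was 36.4% of the WT mean, against 13.1% to 17.1% for the activating receptors. The log2 change was -1.33 (SE 0.54; unadjusted p = 0.0577, adjusted p = 0.459 in limma). Fcgr2b and Fcgr3 share sequence: 166 of the 1733 stretches of 50 bases in annotated Fcgr3 transcripts (9.58%) are identical in Fcgr2b transcripts, and how reads there were counted is not known. Of the 5685 stretches in Fcgr2b transcripts, 478 (8.41%) are shared with any other gene, 166 of them with Fcgr3. Fcgr1, Fcgr4, Fcer1g and Fcgrt had 0 such stretches in common with any other annotated gene. Gene models annotated over Fcgr3, Fcgr4, Fcgr2b and Fcgrt had 0 to 2 reads in any library.

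The make-up of the receptor reads differed accordingly. Fcgr2b supplied 31.7% and 26.3% of the reads of the 4 receptors in CKO and 18.3% and 14.3% in WT. Fcgr3 supplied 61.97% and 65.6% in CKO and 74.1% and 74.3% in WT. The shares of Fcgr1 (4.66% and 3.98% in CKO, 4.49% and 6.90% in WT) and Fcgr4 (1.64% and 4.05% in CKO, 3.07% and 4.47% in WT) overlapped between the groups. There were 2.15 and 2.80 activating receptor reads for each Fcgr2b read in CKO, against 4.45 and 5.99 in WT, a log2 difference of -1.07 that exceeded the SD within groups (0.27 in CKO and 0.30 in WT). With 2 libraries against 2, an exact two-sided permutation test of such a ratio cannot give a p below 0.333, so no test is given. Across all genes tested, reads per activating receptor read were higher in both CKO libraries for 91.7%, so the direction seen for Fcgr2b is the one that nearly every gene had.

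**Figure D2:**
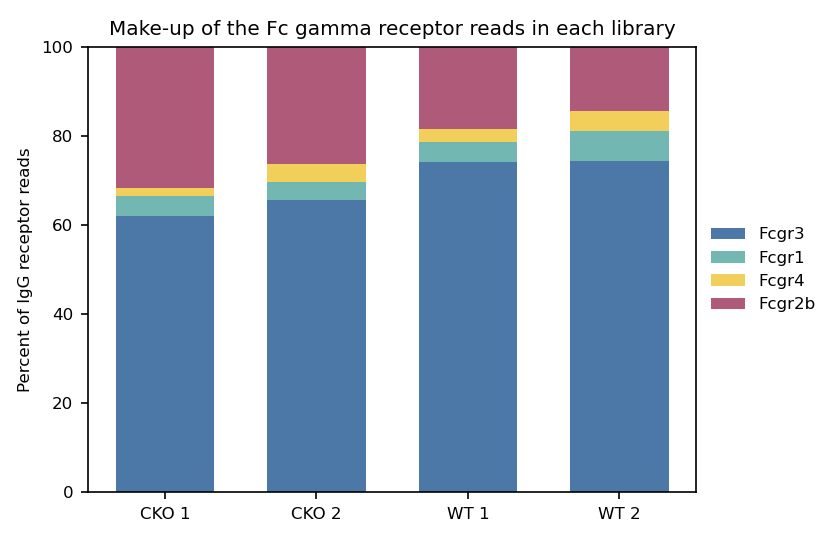
Percent of the reads of Fcgr3, Fcgr1, Fcgr4 and Fcgr2b together that belong to each gene, as stacked bars from 0 for each library, CKO left of WT. The Fcgr2b part is 31.7% and 26.3% in CKO and 18.3% and 14.3% in WT.

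The signalling chain followed the activating receptors. Fcer1g (ENSMUSG00000058715.11; chromosome 1, 171229572 to 171234365, minus strand), without which mouse Fcgr1, Fcgr3 and Fcgr4 do not signal or stay stably on the surface, had 973.7 and 2091.5 scaled reads in CKO and 4631.1 and 17883.0 in WT. The groups did not overlap, and WT replicate 2 stood above the rest. The log2 change was -2.67 (SE 0.75), with the smallest unadjusted p of the 6 genes (0.0167; adjusted p = 0.459 in limma). Fcer1g reads per activating receptor read were 0.780 and 0.804 in CKO and 0.913 and 0.993 in WT, a narrow range beside the differences in the genes themselves. Both CKO values were still below both WT values, whereas 91.7% of all genes tested, of any cell type, were above by this measure. The share among macrophage genes alone was not counted. The log2 difference of -0.27 exceeded the SD within groups (0.031 in CKO and 0.086 in WT), and it was not tested. Fcer1g reads per read of Tyrobp, the other ITAM adaptor of myeloid cells, overlapped between the groups (0.853 and 0.555 in CKO, 0.544 and 0.570 in WT).

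Fcgrt was the highest receptor per kilobase in 3 of the 4 libraries and had the log2 change nearest 0. Fcgrt (ENSMUSG00000003420.8; chromosome 7, 45092990 to 45103851, minus strand) had 11217.9 and 8889.5 scaled reads in CKO and 8241.6 and 7618.8 in WT. Both CKO libraries were above both WT libraries, but WT replicate 1 was only 0.11 below CKO replicate 2 on the log2 scale. The CKO libraries averaged 10053.7 ± 1646.4 and the WT libraries 7930.2 ± 440.4 scaled reads (SD, n = 2 each), with a log2 change of 0.33 (SE 0.31; unadjusted p = 0.329, adjusted p = 0.635 in limma), a difference that did not hold up against the spread between libraries. B2m, which encodes its partner beta-2 microglobulin, had a log2 change of -0.090 (SE 0.52; adjusted p = 0.947 in limma), with 35107 and 46852 reads in CKO and 39524 and 39209 in WT. Fcgrt reads per Fcer1g read were 11.5 and 4.25 in CKO and 1.78 and 0.426 in WT. The share of all genes higher by this ratio was not counted. For the similar measure of reads per activating receptor read, 91.7% of all genes tested were higher in both CKO libraries. The direction of the ratio therefore does not set Fcgrt apart from genes at large.

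Per kilobase of annotated exons, the order of the 6 genes depended on the library. In both CKO libraries Fcgrt led with 5336.8 and 4229.1 scaled reads per kilobase, followed by Fcer1g (1114.1 and 2393.0) and Fcgr3 (652.7 and 1335.2). In WT replicate 1 Fcer1g (5298.8) stood above Fcgrt (3920.8) and Fcgr3 (2652.2), and in WT replicate 2 both Fcer1g (20461.1) and Fcgr3 (8994.8) stood above Fcgrt (3624.5). Fcgr2b, Fcgr1 and Fcgr4 were the lowest in every library, and the ranges of their levels per kilobase over the 4 libraries overlapped: 100.2 to 519.0 for Fcgr2b, 32.9 to 559.6 for Fcgr1 and 23.9 to 747.6 for Fcgr4. Fcgr2b was the lowest in WT replicate 2 on the union of exons and the highest of these 3 there on the length of its principal transcript (847.9).

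The log2 changes of the receptors were set beside those of 10 macrophage markers, all of which had a negative log2 change. That of Adgre1 was -3.08 (SE 0.76), that of Cd68, a lysosomal glycoprotein, -3.22 (SE 0.86), that of the CSF1 receptor gene Csf1r -2.18 (SE 0.64) and that of the phagocytic receptor gene Mertk -0.029 (SE 0.34), with an adjusted p of 0.459 for the first 3 and 0.975 for Mertk in limma. Summed scaled reads of the 10 markers were 40860.4 and 87783.5 in CKO and 179225.1 and 528572.1 in WT, in the same order of libraries as Fcgr1, Fcgr3, Fcgr4, Fcgr2b and Fcer1g.

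**Figure D3:**
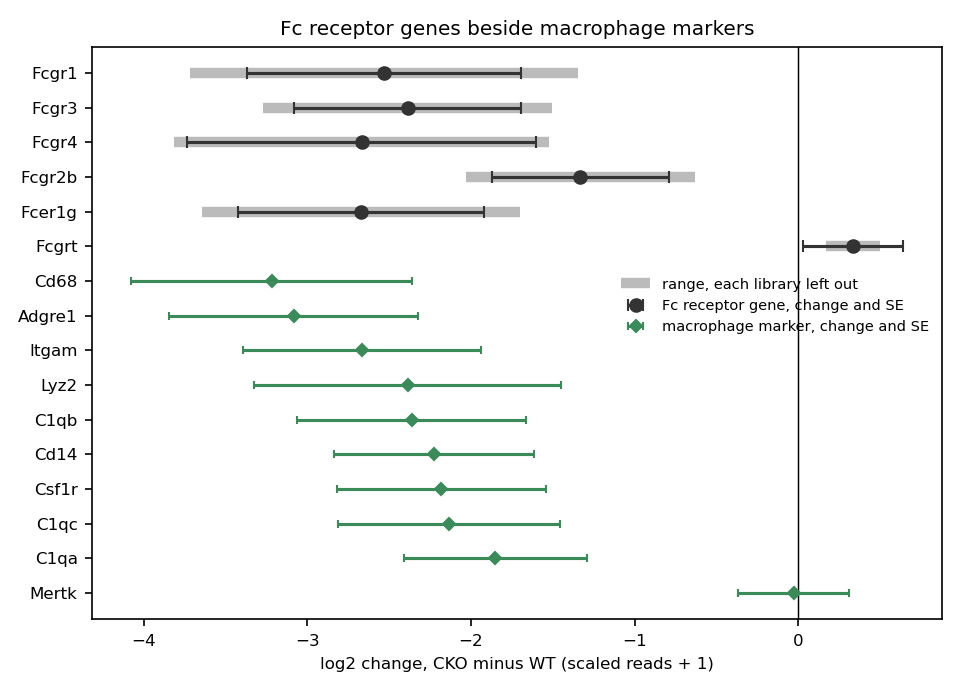
The log2 change, CKO minus WT, with its SE for the 6 Fc receptor genes (circles) and 10 macrophage markers (diamonds); grey bars, drawn for the Fc receptor genes, span the values with each library left out in turn. Fcgr1, Fcgr3, Fcgr4 and Fcer1g lie between -2.67 and -2.39, among most macrophage markers, while Fcgr2b lies at -1.33 and Fcgrt at 0.33.

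Within a library, Fcgr3 kept nearly the same proportion to the macrophage markers. Fcgr3 had 2.77 and 2.64 reads per 100 macrophage marker reads in CKO and 2.57 and 2.95 in WT, so the groups overlapped although Fcgr3 itself spanned 3.78 on the log2 scale. Fcgr1 (0.208 and 0.160 in CKO, 0.156 and 0.274 in WT) and Fcgr4 (0.0736 and 0.163 in CKO, 0.107 and 0.178 in WT) overlapped as well. Fcer1g had 2.38 and 2.38 in CKO and 2.58 and 3.38 in WT, below WT in both CKO libraries, as for 1.49% of all genes tested. That share is over genes of all cell types. The share among macrophage genes was not counted, so the value does not set Fcer1g apart from them. Fcgr2b had 1.42 and 1.06 in CKO and 0.636 and 0.569 in WT, above WT in both CKO libraries. That direction was shared by 92.1% of all genes tested, so it does not set Fcgr2b apart from genes at large.

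Taken against each marker on its own, Fcgr2b reads per marker read were above WT in both CKO libraries for 9 of 10 markers and below for Mertk. Fcgr3 was above for 2, below for 2 and overlapping for 6, and Fcer1g was above for 2, below for 5 and overlapping for 3. Fcgr3 reads per Adgre1 read were 0.817 and 0.824 in CKO and 0.549 and 0.466 in WT, while Fcgr3 reads per Lyz2 read overlapped (0.0626 and 0.0442 in CKO, 0.0456 and 0.0608 in WT). The proportion therefore depended on the marker chosen, and Lyz2, the myeloid lysozyme gene, supplied the most reads of the 10 (18064 and 57859 in CKO, 97222 and 244332 in WT).

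**Figure D4:**
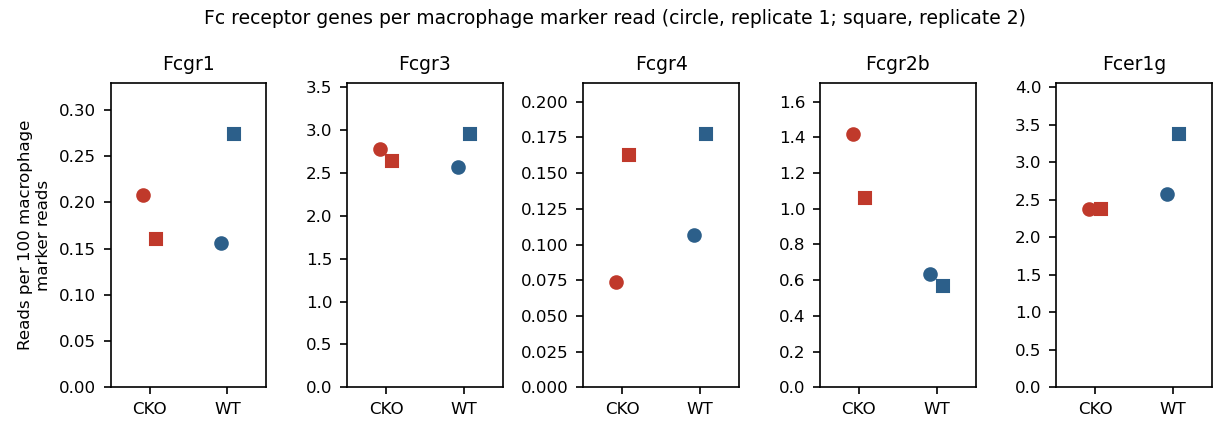
Reads of each gene per 100 reads of the 10 macrophage markers in the same library, on axes from 0, with CKO left of WT. Fcgr3 stays between 2.57 and 2.95 in all 4 libraries, and Fcgr2b lies at 1.42 and 1.06 in CKO and at 0.636 and 0.569 in WT.

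Genes that carry the signal of the activating receptors had lower values in CKO together with them. All 17 ITAM kinases and effectors tested had a negative log2 change (median -2.12, beside 0.015 for all genes), both CKO libraries were below both WT libraries for 16 of 17 (background 26.8%), and 12 had an unadjusted p under 0.05 (background 7.26%), with 0 after adjustment. Among the genes of smallest p were Vav1, a guanine nucleotide exchange factor (-2.73, SE 0.70), and the adaptor Blnk (-3.13, SE 0.83), each with an adjusted p of 0.459 in limma. Lyn, a Src family kinase that phosphorylates both ITAMs and ITIMs, overlapped between the groups, with 2158 and 3571 reads in CKO and 2698 and 4700 in WT. The list median was -1.41 without WT replicate 2, and -2.84 without WT replicate 1.

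Of 6 phosphatases and adaptors that act below inhibitory receptors, 5 had a negative log2 change (median -1.84), 5 of 6 lay below WT in both CKO libraries (background 26.8%) and 4 were lower at an unadjusted p under 0.05 (background 7.26%), with 0 after adjustment. The adaptor Dok2, the phosphatase gene Ptpn6 (SHP-1) and the adaptor Dok1 were at -2.44, -2.52 and -1.84. Inpp5d, the phosphatase that Fcgr2b recruits, had 707 and 1424 reads in CKO and 1664 and 5043 in WT, a log2 change of -1.66 (SE 0.62; adjusted p = 0.459 in limma). Of 9 other ITIM receptors of myeloid cells, 8 had a negative log2 change and 8 lay below WT in both CKO libraries (background 26.8%; median -2.78), with Clec12a at -3.45, Lair1 at -2.63 and the SIRP alpha gene Sirpa, which binds CD47, at -2.79. Without WT replicate 2 the medians of the phosphatase and ITIM receptor lists were -0.97 and -1.83, and without WT replicate 1 the phosphatase median was -2.73.

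Fcer1g serves other receptors too, and 4 of the 9 listed had enough reads to be tested. All 4 had a negative log2 change and lay below WT in both CKO libraries (background 26.8%; median -2.14, and -1.39 without WT replicate 2). Cd300ld was at -2.60 (SE 0.64), and the C-type lectin receptors Clec4d and Clec4e, which sense microbial lipids, were at -3.22 (SE 1.05) and -1.68 (SE 0.60), each with an adjusted p of 0.459 in limma. The chains specific to the IgE receptor were nearly undetected: Fcer1a had 0 or 1 read in each library and Ms4a2 had 0. Of 5 other ITAM adaptors tested, 3 had a negative and 2 a positive log2 change (median -0.91; without CKO replicate 1 -0.51, without WT replicate 1 -1.83 and without WT replicate 2 0.0028). Among them, Tyrobp (-2.98, SE 0.85) and Hcst (-2.31, SE 0.68) were lower and Cd247 (1.51, SE 0.64), the T cell receptor zeta chain, was higher in both CKO libraries, with adjusted p of 0.459 each in limma. Other T cell genes did not share the direction of Cd247. Cd3d, Cd3e and Cd3g had 1 to 7 reads in a library, Cd8a had 0, and Cd4 overlapped between the groups. Trac had 9 and 28 reads in CKO and 134 and 41 in WT.

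**Figure D5:**
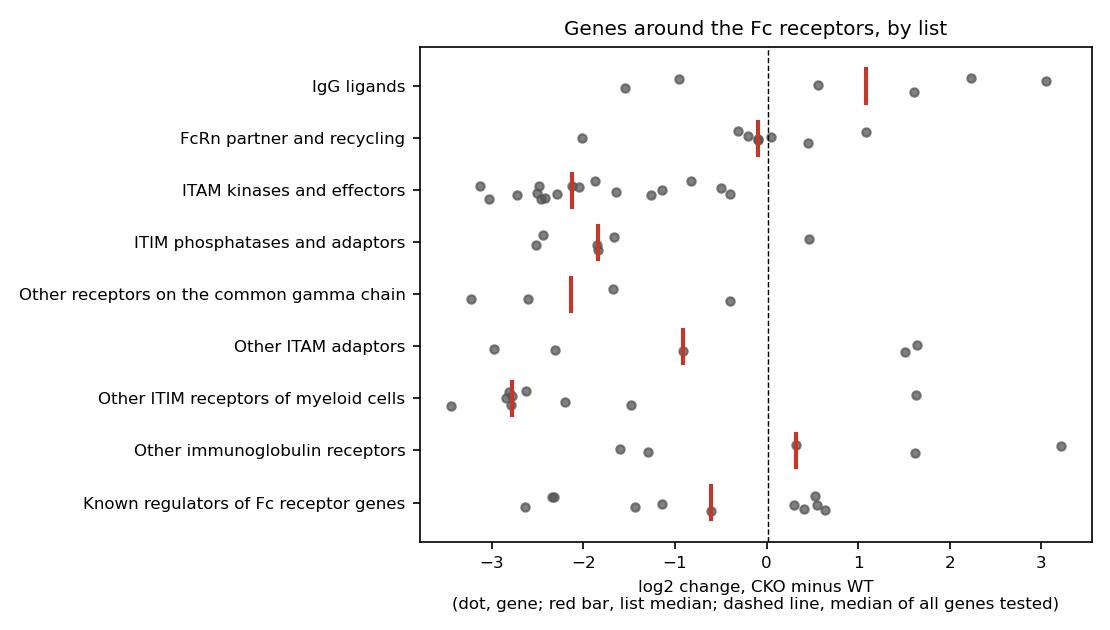
The log2 change, CKO minus WT, of each tested gene in 9 lists around the Fc receptors (the row of IgG ligands holds all immunoglobulin chain genes tested), with the list median as a red bar and the median of all genes tested (0.015) as a dashed line. The ITAM effector dots all lie left of 0, and the median of the ITIM receptor list is -2.78.

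The IgG genes themselves gave few reads. Of 11 immunoglobulin chain genes, 6 were tested, 2 with a negative and 4 with a positive log2 change (median 1.09; without CKO replicate 2 0.57, without WT replicate 1 1.82 and without WT replicate 2 0.25). The 4 IgG heavy chain genes Ighg1, Ighg2b, Ighg2c and Ighg3 had 0 to 21 reads in any library and were not tested. Ighm, the heavy chain of IgM, had 6658 and 17160 reads in CKO and 26178 and 13642 in WT, which overlapped. The light chain genes Iglc2 (2.23, SE 0.71), Iglc1 (3.05, SE 1.41) and Igkc (1.61, SE 0.78) had higher values in both CKO libraries, with adjusted p of 0.459, 0.459 and 0.460 in limma, and the Iglc genes are a multigene family whose reads the counting could split among them. IgG protein is not measured by these reads, and where it was made was not tested.

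Among the other immunoglobulin receptors, Fcamr, the receptor for IgA and IgM, was the gene of smallest p, with 72 and 27 reads in CKO and 4 and 3 in WT, a log2 change of 3.22 (SE 0.70; adjusted p = 0.459 in limma). The Fc receptor-like gene Fcrls had a log2 change of -1.30 (SE 0.43; adjusted p = 0.459 in limma). Fcrl1, with 5 and 13 reads in CKO and 13 and 45 in WT, was at -1.60 (SE 0.82; adjusted p = 0.471 in limma). Of the 5 tested, 2 were lower and 3 higher (median 0.32; without CKO replicate 1 0.48 and without CKO replicate 2 0.16). Trim21, the cytosolic IgG receptor, had 479 and 663 reads in CKO and 384 and 439 in WT, a log2 change of 0.32 (SE 0.27; adjusted p = 0.605 in limma). Among 8 genes of FcRn pairing and recycling, 5 were lower and 3 higher (median -0.090; without CKO replicate 1 0.024, without CKO replicate 2 -0.16 and without WT replicate 2 -0.017). Rab11fip1, a Rab11 effector, was at -2.02 (SE 0.60; adjusted p = 0.459 in limma), the motor gene Myo5b at 1.09 and Rab4a at 0.45.

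Known regulators of these genes did not share a direction. Of 11 tested, 6 were lower and 5 higher (median -0.61; without CKO replicate 1 -0.31, without WT replicate 1 -0.92 and without WT replicate 2 -0.30). Spi1, which encodes PU.1, had 548 and 1521 reads in CKO and 2569 and 10392 in WT, a log2 change of -2.63 (SE 0.80), and Irf8, its partner factor, was at -2.32 (SE 0.65), each with an adjusted p of 0.459 in limma. The interferon gamma receptor gene Ifngr2 was at -1.43 (SE 0.41), and Ifngr1 at 0.53 (SE 0.30). Ifng, the cytokine known to raise Fcgr1, had 0 and 0 reads in CKO and 1 and 1 in WT.

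Markers of the other cells that carry these receptors did not share a pattern. Summed scaled reads of 7 B cell markers were 158.3 and 179.3 in CKO and 141.2 and 197.7 in WT, against 580.0 to 3005.0 for Fcgr2b alone. Those of 6 NK cell markers were 16.0 and 66.1 in CKO and 55.0 and 42.1 in WT, and those of 8 mast cell markers, with Ms4a2 at 0 in all libraries, were 1531.7 and 2215.6 in CKO and 1307.3 and 500.5 in WT. Kit supplied most of the mast cell sum (1333.4 and 2062.5 in CKO, 1182.7 and 442.7 in WT). Hdc (122.2 and 113.2 in CKO, 82.0 and 28.4 in WT) and Cma1 were also higher in both CKO libraries. The mast cell genes Cpa3 and Tpsb2 overlapped between the groups. Summed scaled reads of 5 dendritic cell markers were 2328.1 and 3865.0 in CKO and 1810.9 and 671.9 in WT. Zbtb46 alone supplied 2144.8 and 3692.9 of these in CKO and 1690.5 and 579.3 in WT. Cd209a was also higher in both CKO libraries (147.3 and 88.8 in CKO, 76.8 and 41.0 in WT). Clec9a and Xcr1 overlapped, and Flt3, with 1 to 14 reads in a library, was lower in both CKO libraries. Summed scaled reads of 7 neutrophil markers were 266.5 and 336.1 in CKO and 469.3 and 827.5 in WT. Of the 4 neutrophil markers tested, 2 were lower, S100a8 (-1.79) and Csf3r (-1.06), and 2 were higher, among them S100a9 (2.21); Ly6g had 3 reads in CKO replicate 1 and 0 in the other 3 libraries. Summed scaled reads of 4 monocyte markers were 518.9 and 1690.2 in CKO and 1348.8 and 3459.3 in WT, which overlapped. Ccr2 (463.8 and 1171.2 in CKO, 1249.2 and 3373.0 in WT) and Plac8 were lower in both CKO libraries, and Ly6c2 overlapped. Chil3 had 477.4 scaled reads in CKO replicate 2 and 13.0 to 36.3 in the other libraries. Sums of 7 endothelial markers, a cell type that makes Fcgrt, were 66208.3 and 96733.7 in CKO and 57339.9 and 19947.0 in WT. The part of any of these cells in the differences was not tested.

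The genes whose pattern over the 4 libraries lay closest to each receptor were found by the Euclidean distance between log2 values centred on each gene's own mean. For Fcgr3 they were Tpd52 (distance 0.071), Cd48 (0.104) and Rgs2 (0.108), and for Fcer1g they were Psd4 (0.072), Pstpip1 (0.080) and Cxcl2 (0.104). For Fcgr2b they were Entpd7, Sgsm1 and Crlf2 (0.067 to 0.079), for Fcgr4 Rptoros, Ttk and Cep55 (0.066 to 0.177), and for Fcgr1 Mt3, Ccdc180 and Shisa9 (0.074 to 0.090), the last 3 with 4 to 125 reads in a library. For Fcgrt they were Cluap1, Atp5h and Sgta (0.023 to 0.045). Besides the genes closest to Fcgr1, reads in a library were few for Rptoros (2 to 86), Ttk (6 to 186), Cep55 (11 to 342) and Sgsm1 (12 to 60). Among the receptors themselves, Fcer1g and Fcgr3 were the closest pair (0.318), Fcgr2b was 1.11 from Fcgr3 and 1.43 from Fcer1g, and Fcgrt was 2.11 to 3.89 from the others. All genes tested had a median distance of 2.83 from Fcgr3, 3.14 from Fcer1g, 1.81 from Fcgr2b and 0.88 from Fcgrt. With 4 libraries, a small distance rests on 4 values for each gene.

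The size of the log2 changes of the receptor genes depended on single libraries. Leaving out a library could not reverse a direction, because the CKO and WT values of each gene did not overlap. Without WT replicate 2, the library richest in macrophage transcripts, the log2 changes were -1.34 for Fcgr1, -1.51 for Fcgr3, -1.52 for Fcgr4, -0.63 for Fcgr2b and -1.70 for Fcer1g. Without CKO replicate 1 that of Fcgr4 was -1.56 and that of Fcgrt 0.17, and without CKO replicate 2 that of Fcgrt was 0.50. Without WT replicate 1 that of Fcgr2b was -2.03, and the adjusted p was 0.0442 for Fcgr1, Fcgr3 and Fcer1g, 0.0457 for Fcgr2b and 0.0700 for Fcgr4 in limma, in a fit that takes the spread from the CKO libraries and assumes the same for the lone WT library.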

How the data were processed

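Adipocyte RNA was prepared with TRIzol and an RNeasy kit and sequenced on an Illumina instrument, per the labels' protocols. The submitters' processing notes name STAR 2.7.5c, FastQC and the build GRCm38.p6; the read counter, its annotation and its strand setting were not given in the sources used here. Values were deposited as log2 values, called normalised counts in the file's name. For 100% of genes in each library, 2 to the power of the value less 1 was whole within 0.01, and totals differed, so the deposited values are log2(reads + 1) without scaling between libraries.

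Reads were recovered by rounding, divided by size factors (median ratios over 19847 genes with reads in every library) and returned to log2 with a pseudocount of 1, which understates the change of low genes. Genes with a mean deposited log2 of at least 3 entered a two-sided limma fit on group alone (version 3.58.1, R 4.3.3; lmFit, then eBayes with a trend), with 2 residual and 2.92 prior degrees of freedom and Benjamini-Hochberg adjustment over all genes tested. The fit was tested on simulated data with a smaller spread within groups than the genes described, other than Fcgrt, had here. That test does not show how the fit does at the spread of these genes. Coordinates, 1-based, exon lengths (union over transcripts) and transcript sequences are those of GENCODE M21, to which 99.3% of identifiers matched with their version. Marker and pathway sums are over all listed genes in the table.

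The genes described and the lists were chosen with earlier results of these data known. Named genes are the 6 receptors, the 3 of smallest p in each pathway list and the 3 closest patterns for each receptor (leaving out unnamed gene models and pseudogenes), with Prdm1, Adgre1 and Adipoq; Csf1r, Cd68, Mertk, Lyz2, Lyn, Inpp5d, B2m, Trim21, Ifng, Ifngr1, Ighm, Fcer1a, Ms4a2, the cell markers and the IgG genes were named after their values were seen. Some genes that this rule picks are not reported here. Where the file's name gives normalised counts, the values held unscaled reads, and limma on log2 values was kept because the deposited unit is log2. Alternatives were no filter, a higher filter, no trend, a robust fit, other scalings, a pseudocount of 10, library weights, voom weights and each library left out. Replicates were numbered in record order, which links no CKO library to a WT one.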

Additional observations from a re-analysis of the deposited data

How the results depend on the processing

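Every log2 change of the 6 genes kept its direction under the 14 alternatives run. With a library left out this was certain beforehand, because the groups did not overlap for any of these genes. With all 4 libraries, the log2 change ranged from -2.53 to -2.40 for Fcgr1, -2.40 to -2.25 for Fcgr3, -2.67 to -2.48 for Fcgr4, -1.33 to -1.20 for Fcgr2b, -2.68 to -2.54 for Fcer1g and 0.33 to 0.47 for Fcgrt, and adjusted p stayed between 0.432 and 0.675 in limma. With each library left out in turn the ranges were -3.72 to -1.34 for Fcgr1, -3.27 to -1.51 for Fcgr3, -3.81 to -1.52 for Fcgr4, -2.03 to -0.63 for Fcgr2b, -3.65 to -1.70 for Fcer1g and 0.17 to 0.50 for Fcgrt. Fcgr1, Fcgr3, Fcgr2b and Fcer1g passed the adjusted threshold without WT replicate 1 and in no other alternative; the cause was not tested. Genes past that threshold numbered 0 to 837 higher and 0 to 938 lower over the left-out libraries, all of them from the fit without WT replicate 1, and 0 under every other alternative. Genes higher at an unadjusted p under 0.05 numbered 859 without scaling, 988 without a filter and 333 with a mean deposited log2 of at least 6. The log2 difference in activating reads per Fcgr2b read was -0.88 without CKO replicate 1 and -1.26 without CKO replicate 2. It was -1.29 without WT replicate 1 and -0.86 without WT replicate 2. The alternatives for this ratio, for Fcer1g reads per activating receptor read and for levels per kilobase were chosen after seeing the data. No paired analysis was possible because the replicate numbers follow record order and the labels link no CKO library to a WT library. Depth did not limit Fcgr3, Fcer1g, Fcgr2b or Fcgrt, with at least 579 reads in every library; the 30 reads of Fcgr4 and 85 of Fcgr1 in CKO replicate 1 are the least precise.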

Other observations

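Markers of other tissue cells and of blood differed between the libraries in several ways. Summed scaled reads of 5 red blood cell markers were 18879.5 and 30206.5 in CKO and 9081.6 and 3256.3 in WT, and both CKO libraries were above both WT libraries for 5 of 5 genes (background 23.9%). Those of 9 adipocyte markers were 1230159.2 and 790336.7 in CKO and 687085.6 and 213818.1 in WT, with 4 of 9 genes above WT in both CKO libraries (background 23.9%); Cfd and Fabp4 supplied most of the sum, and Lep was lower in both CKO libraries (-1.23). Fibroblast marker sums were 18463.7 and 14654.9 in CKO and 22169.2 and 28880.1 in WT, with 3 of 6 genes, Col1a1, Col3a1 and Pdgfra, below WT in both CKO libraries (background 26.8%) and the rest overlapping. The 5 mesothelial markers were low in every library (334.6 and 199.3 in CKO, 277.2 and 136.7 in WT). Sdc1, listed here as a plasma cell marker and also made by other cells, had 422 and 1562 reads in CKO and 2974 and 8872 in WT, although the plasma cell marker Mzb1 had 0 or 1 read in each library.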
